A study of Mus musculus with 40 samples.

Results

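The 10 core genes of the circadian clock were examined in the livers of mice given GenX, a perfluoroalkyl ether acid used as a fluoropolymer processing aid, by oral gavage for 90 days. The genes were Arntl, Clock, Npas2, Per1, Per2, Per3, Cry1, Cry2, Nr1d1 and Dbp, taken by symbol from the deposited probe counts. They are 10 of 21448 gene symbols and are read by 14 of 30146 probes, and each gene was represented by its most counted probe. All mice were wildtype, outbred Crl:CD1(ICR) animals housed singly, and the groups were 5 males and 5 females at each of 0 (control, deionized water), 0.1, 0.5 and 5 mg/kg bw/day. The livers were formalin-fixed and paraffin-embedded, and one library, from a female at 0.5 mg/kg (mouse 355), was left out for its low depth, so that 39 mice were compared.

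The liver clock is a loop of transcription and repression that takes about a day. CLOCK or its paralogue NPAS2 pairs with BMAL1, the product of Arntl, and the pair activates genes through E-box elements. Among these genes are the Per and Cry repressors, which shut the pair off again, Nr1d1, which encodes REV-ERB alpha and represses Arntl, and Dbp, an output factor that activates other genes through D-box elements. In mouse liver the messenger RNAs of Dbp and Nr1d1 peak in the light phase, those of the Per genes peak around the change from light to dark, and Arntl peaks near the end of the night, so that a single liver sample reports a phase as much as a level. The lights followed a daily cycle of light and dark in this study, but neither the sample labels nor the study's methods give the time at which the animals were killed, and age is not given either. A difference in sampling time between mice or groups therefore cannot be told apart from a difference in expression.

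The 39 libraries held 10341341 to 15562253 reads. Counts rose in steps of 21 to 50 reads, taken here as the reads from 1 captured molecule, which put the libraries at 284218 to 649658 captured molecules. The males at 5 mg/kg held 489778 to 649658 molecules against 284218 to 367656 in the male controls, so that the highest dose in males was also the group with the most captured RNA. The defining liver genes were present in every group: the sum over the 4 hepatocyte markers Alb, Ttr, Ahsg and Fgb lay between 8543 and 17060 CPM over all mice, where CPM are counts scaled by TMM to a common library total. Many clock genes were counted from only a few molecules. A gene with no molecule in a library may still have been present at up to 3 molecules, which on a CPM scale is 4.62 to 10.6 in these libraries, and this limit covers counting error only. Levels are not compared between genes, since each probe captures its target with its own efficiency. In whole tissue, fewer cells of a type and less RNA per cell cannot be told apart.

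Of the activating genes, Clock and Arntl were measured in most mice and Npas2 in few, and none was called at any dose. Clock was present in all 39 mice, at 7.41 to 51.3 CPM with a median of 27.2. The Clock values of the male controls were 13.9, 7.41, 51.3, 27.4 and 22.1 CPM, and those of the males at 5 mg/kg were 19.5, 42.1, 46.8, 27.2 and 32.4 CPM. The 2 groups overlapped, and the control group alone covered the whole range of the treated one. The fitted log2 fold change of Clock at 5 mg/kg was 0.46 ± 0.34 (SE) in males and -0.02 ± 0.34 in females, with edgeR adjusted p of 0.576 and 1.

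Arntl, which encodes the obligate partner BMAL1, was present in 35 of 39 mice at a median of 7.86 CPM, or 2.8 molecules. It was 7.64, 5.11, 9.36, 7.86 and 3.25 CPM in the male controls and 1.86, 0, 0, 14 and 3.58 CPM in the males at 0.5 mg/kg. Most of the treated males at this dose lay at the bottom of the control range or under it, while mouse 304 lay above it. In females the values were 2.21, 6.26, 10.1, 10.7 and 9.37 CPM in controls, 14.4, 24.1, 3.64, 15 and 3.69 CPM at 0.1 mg/kg and 15.7, 3.28, 0, 14.9 and 2.96 CPM at 5 mg/kg. At 0.1 mg/kg 3 of 5 females exceeded every control and none lay below them, while at 5 mg/kg 2 lay above and 1 below, and the log2 fold change in females at 5 mg/kg was -0.07 ± 1.01 (edgeR adjusted p = 1).

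Npas2, the paralogue of Clock, had reads in 10 of 39 mice and never more than 1.4 molecules. It was at 0 in all 5 males at 0.1 mg/kg and all 5 females at 5 mg/kg, but also in 3 of 5 male controls and 4 of 5 female controls. Its fold change is not interpreted, because both sides of each comparison were at or under the limit that a count of 0 allows.

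Of the Per genes, which encode the period repressors, Per1 and Per2 were captured in few mice. Per2 had reads in 1 of 39 mice, male 204 at 0.1 mg/kg, with 1.2 molecules, and was not tested. Per1 had reads in 10 of 39 mice, at most 2.4 molecules, and was at 0 in all 10 mice at 5 mg/kg. In each sex 3 of 5 controls were also at 0 for Per1. The edgeR test did not call it (adjusted p = 0.192 in males and 0.258 in females), whereas DESeq2 did in both sexes (adjusted p = 6.34e-06 and 1.05e-05). The DESeq2 log2 fold changes were -21.4 and -21.6, with the treated groups at 0 in every mouse. The controls held at most 0.8 molecules in males and 1.9 in females. Counts this low cannot show a fall of Per1, and no loss is read from these calls.

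Per3 had reads in 20 of 39 mice and stood out in single animals. In the male controls it was 0, 6.99, 0, 3.02 and 0 CPM, and in the female controls 5.87, 2.57, 0, 0 and 0 CPM. Higher values were found in treated mice: 13.6 CPM in male 204 at 0.1 mg/kg, 20.1 CPM in female 253 at 0.1 mg/kg, 11.6 and 11.4 CPM in males 301 and 305 at 0.5 mg/kg, and at 5 mg/kg 10.5 CPM in male 405, 21.5 CPM in female 453 and 9.05 CPM in female 455. Each of these treated groups also held mice at 0 or within the control range. The log2 fold change of Per3 ran from -0.44 ± 2.16 in females at 0.5 mg/kg to 1.97 ± 2.09 in females at 5 mg/kg, and no adjusted p was below 0.962.

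The cryptochromes, the partners of the PER proteins in repression, were present in all 39 mice. Cry1 lay between 3.66 and 33.6 CPM. It was 3.66, 24.7, 13.1, 10.9 and 15.1 CPM in the female controls and 29.1, 33.6, 10.3, 15.7 and 30 CPM in the females at 0.1 mg/kg, of which mice 251, 252 and 255 exceeded every control. The log2 fold change was 0.82 ± 0.49 (edgeR adjusted p = 0.81), and at 5 mg/kg it turned to -0.63 ± 0.49 in females (adjusted p = 0.756). A second Cry1 probe, counted about as often, gave -0.04 ± 0.52 and -0.74 ± 0.52 for the same comparisons, and its deviations between mice followed those of the first one only weakly, with r = 0.27 over 39 mice.

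Cry2 lay between 2.72 and 31.8 CPM. Its male controls were narrow, at 12.2, 10.9, 12.1, 7.14 and 10.2 CPM, and the males at 5 mg/kg were at 6.76, 4.39, 8.54, 3.76 and 14.9 CPM. Only mouse 405 of the treated males exceeded the highest control, and 3 of them lay below the lowest control. The log2 fold change was -0.45 ± 0.51 in these males and -0.68 ± 0.51 in females of the same dose, with edgeR adjusted p of 0.867 and 0.706.

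**Figure D1:**
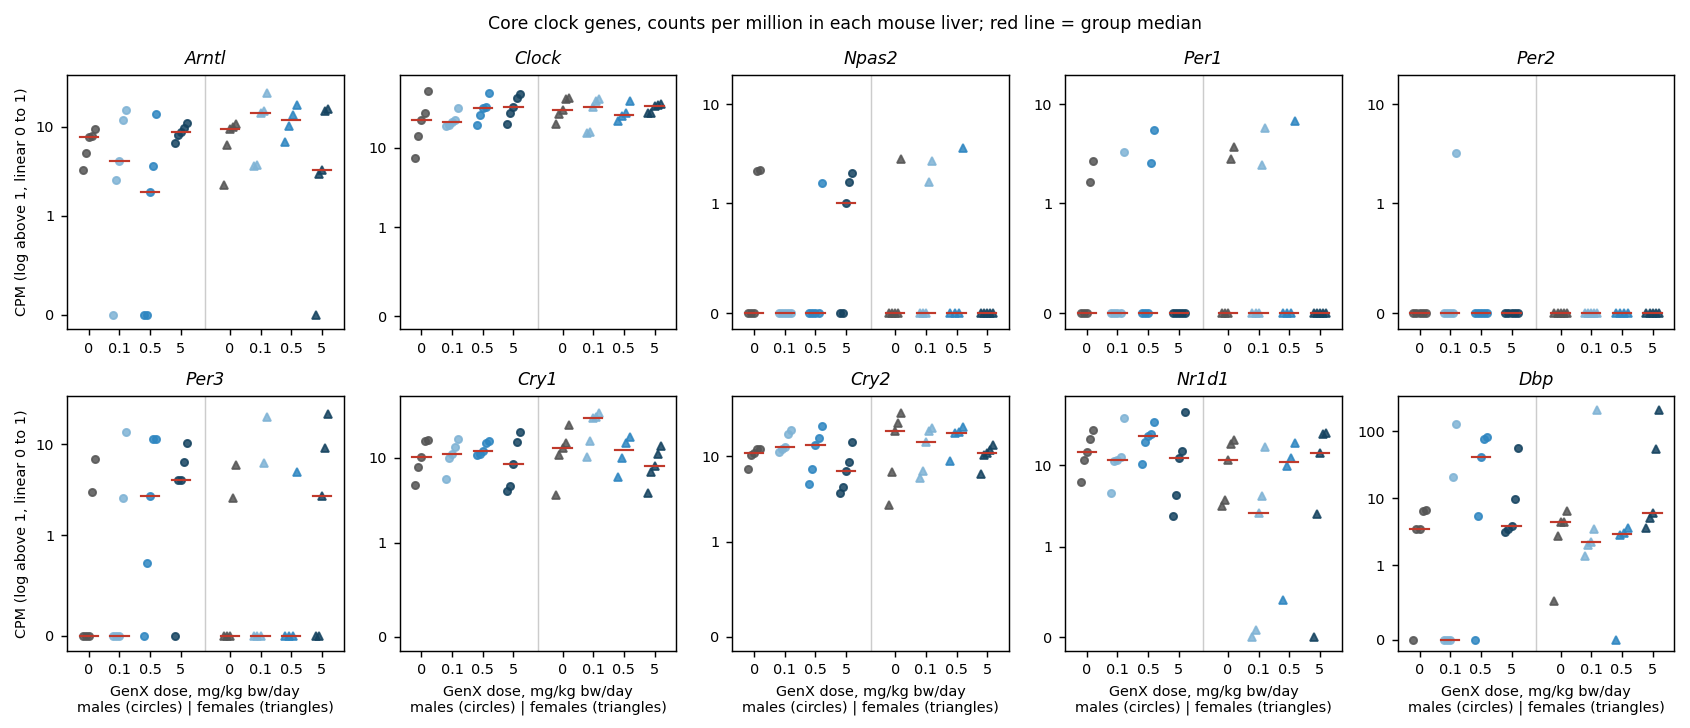
Level of the 10 clock genes in each mouse liver, in CPM on a scale that is logarithmic above 1 and linear from 0 to 1, by GenX dose in mg/kg bw/day. Circles are males, triangles females and red lines group medians; Clock, Cry1 and Cry2 are present in every mouse, while Dbp has single treated mice at up to 210.5 CPM above controls that all lie below 7 CPM.

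Nr1d1, the gene of the repressor REV-ERB alpha, was present in 37 of 39 mice at a median of 12.1 CPM. It was 11.7, 6.13, 26.8, 14.4 and 21.2 CPM in the male controls, and its values at 0.1 mg/kg in males were 12.4, 11.3, 4.53, 37.4 and 11.7 CPM. The value of 37.4 CPM belonged to mouse 204, the animal with the highest Per3 of that group. In males at 5 mg/kg Nr1d1 was 4.26, 2.38, 14.7, 12.2 and 44.3 CPM, and the last of these, in mouse 405, came from 30 molecules. The females at 0.1 mg/kg were at 0, 2.58, 16.6, 4.13 and 0.0839 CPM against 11.7, 3.78, 3.13, 18.1 and 20.5 CPM in their controls, and mouse 253 with 16.6 CPM again had the highest Per3 of its group. The log2 fold change in these females was -1.29 ± 0.92 (edgeR adjusted p = 1), and the other doses lay between -0.17 and 0.45.

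Dbp, the output factor, differed most between animals. In all 10 controls it was low: 3.41, 0, 3.51, 6.35 and 6.59 CPM in males and 2.72, 0.515, 4.37, 6.52 and 4.45 CPM in females, which is at most 3.2 molecules. At 0.1 mg/kg the males were at 0, 20.6, 0, 130 and 0 CPM and the females at 1.35, 2.20, 208, 2.03 and 3.53 CPM. In each sex a single mouse, 204 with 50.5 molecules and 253 with 89.1 molecules, stood far above the rest of its group.

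At 0.5 mg/kg the males had Dbp at 75.4, 81.8, 5.41, 0 and 40.6 CPM, while the 4 females were at 3.04, 3.55, 0 and 2.85 CPM. The male group thus held 3 mice (301, 302 and 305) with 18.2 to 35.2 molecules, and no female at this dose exceeded 1.4 molecules. At 5 mg/kg the males were at 3.51, 3.8, 3.13, 9.73 and 56.3 CPM and the females at 3.61, 5.14, 210.5, 6.0 and 53.3 CPM, with the high values in mice 405, 453 and 455. Over the 6 treated groups, 8 of 29 mice held more than 10 Dbp molecules, at least 18.2 each, against 0 of 10 controls, and the highest value among all other mice was 6.6 molecules. These 8 mice were picked out by their Dbp values, so that the count is a description without a test. Every treated group also held mice inside the control range.

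**Figure D2:**
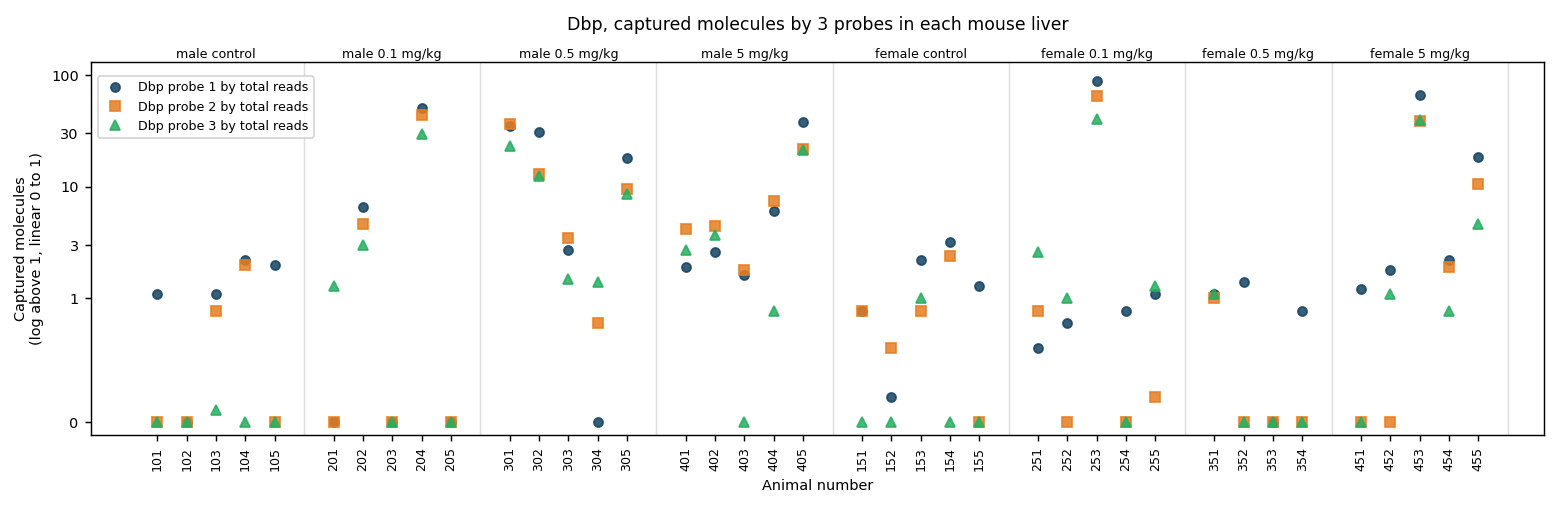
Captured molecules of Dbp read by each of its 3 probes in every mouse, grouped by sex and dose and labelled with the animal number; the scale is logarithmic above 1 and linear below. In mice 204, 253, 301, 302, 305, 405, 453 and 455 all 3 probes are high, whereas in the 10 controls no probe exceeds 3.2 molecules.

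Dbp was read by 3 probes. Their deviations from group means correlated at r = 0.77 (first and second probe by counts), 0.69 (the first and the third) and 0.78 (the second and the third) over 39 mice. Mouse 253 held 89.1, 64.6 and 40.6 molecules by the 3 probes, and mouse 453 held 66.0, 38.7 and 39.8. The high values therefore did not rest on 1 probe.

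Against controls of the same sex, the log2 fold change of Dbp was 2.93 ± 1.40, 3.35 ± 1.42 and 1.94 ± 1.36 in males at the low, middle and high dose. In females it was 3.54 ± 1.44, -0.65 ± 1.46 and 3.9 ± 1.46 at these doses. The edgeR adjusted p of these values was 0.35, 0.259 and 0.513 in males and 0.474, 1 and 0.2 in females, so that none passed the 10% threshold. Single mice carried several of these values: at 0.1 mg/kg the log2 fold change was 0.39 in males without mouse 204 and -0.71 in females without mouse 253, and at 5 mg/kg it was 0.34 in males without mouse 405 and 2.19 in females without mouse 453. In males at 0.5 mg/kg it stayed between 2.93 and 3.67 whichever mouse was left out. In females at 0.5 mg/kg the value turned to 1.56 when the shallow library of mouse 355 was kept. Without a filter on low counts Dbp was called by edgeR in females at the low dose (adjusted p = 0.0299), males at the middle dose (0.00495) and females at the high dose (0.000335).

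The least counted of the Dbp probes was nearly silent in controls, at 0, 0, 0.468, 0 and 0 CPM in males and 0, 0, 1.98, 0 and 0 CPM in females. It was 49.4, 32.7, 3.07, 4.01 and 19.1 CPM in males at 0.5 mg/kg, where all 5 mice exceeded every control. The values of 3.07 and 4.01 CPM lay under the limit that a count of 0 allows, so they cannot be told from controls at 0. By the most counted probe these mice, 303 and 304, were at 5.41 and 0 CPM, inside the control range. This probe was called by edgeR for males of the 0.5 mg/kg group (adjusted p = 0.0347) and, at 5 mg/kg, for males (0.0367) and females (0.0513), and the rule of taking the most counted probe of each gene leaves these calls out of the counts below. No fold is given against controls so close to 0. The calls at 5 mg/kg were lost without mouse 405 in males (adjusted p = 0.159) and without mouse 453 in females (0.308), and in females also without control 151, 152, 154 or 155, at adjusted p of 0.126 to 0.136.

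On the most counted probes, edgeR called none of the 9 tested clock genes in any of the 6 dose comparisons. The share of all 17877 tested probes that was called was 0.0336%, 2.38% and 8.28% in males at 0.1, 0.5 and 5 mg/kg, and 0%, 0.213% and 3.66% in females. With so few members, a count of 0 is near what these shares would give. At an unadjusted p below 0.05, edgeR gave 2 members (Npas2 and Dbp), 1 (Dbp) and 1 (Per1) in males at these doses, and 1 (Dbp), 0 and 3 (Dbp, Per1 and Npas2) in females. The share of all probes below that p was 13.6%, 18.1% and 22.1% in males and 10.3%, 10.2% and 17.9% in females. DESeq2 called 1 member, Per1, for each sex at 5 mg/kg and 0 at the other doses, against 1.55%, 4.91% and 10.5% of all probes in males and 0.923%, 1.69% and 5.61% in females. The median log2 fold change of the tested members ran from -0.16 in females at 0.5 mg/kg to 0.62 in females at 0.1 mg/kg, against medians between -0.01 and 0.10 for all genes. The median of 0.62 is the value of Npas2 itself (± 2.78), which was at or under the limit that a count of 0 allows. It therefore shows no shift of the clock genes as a set. The dose groups of a sex share their controls, so that these comparisons are not independent of each other.

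**Figure D3:**
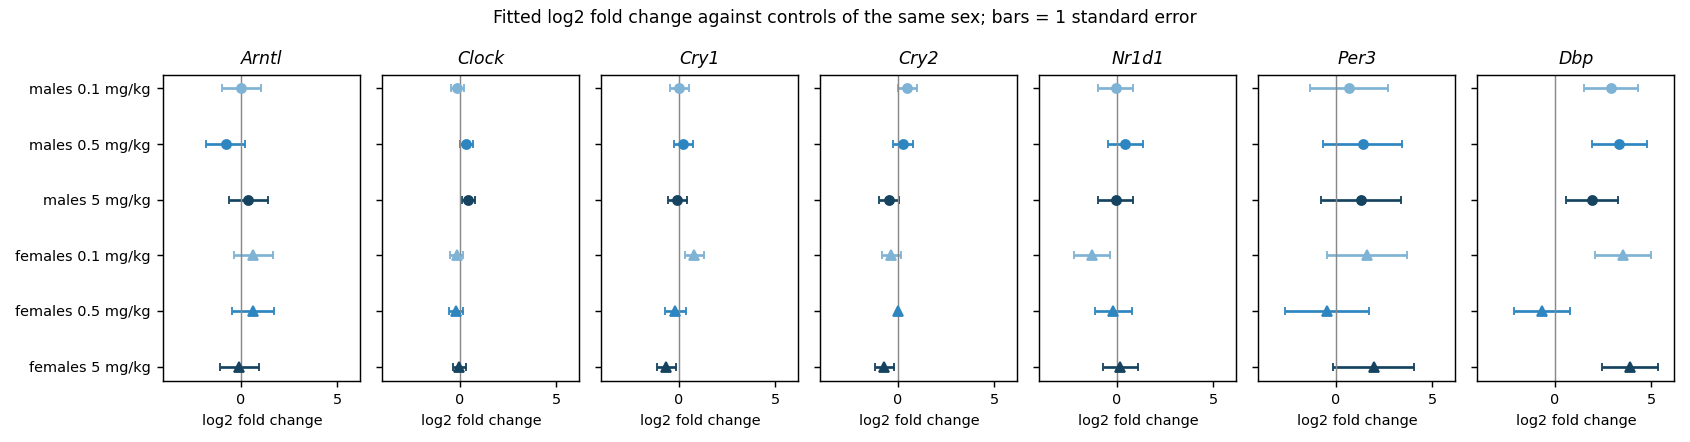
Fitted log2 fold change of 7 clock genes at each dose against controls of the same sex, with bars of 1 standard error; circles are males and triangles females, and the value of Cry2 in females at 0.5 mg/kg has no bar because it was 0.00. Dbp lies 1.94 to 3.9 above 0 in 5 of 6 comparisons with wide bars, and Clock lies within 0.46 of 0 in all 6.

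Between the sexes, control females did not differ from control males in any of the 9 tested clock genes by edgeR, with 0 members at an unadjusted p below 0.05 and 0 by DESeq2, while edgeR called 3.49% and DESeq2 6.14% of all probes and 18.9% were below that unadjusted p in edgeR. The closest was Cry2, at 19.9, 31.8, 2.72, 24.3 and 6.58 CPM in females against 7.14 to 12.2 CPM in males (log2 fold change 0.70 ± 0.51, edgeR adjusted p = 0.631). The difference of the dose effect between the sexes was called for 0 members at any dose, by edgeR or by DESeq2, against 0%, 0.274% and 1.04% of all probes by edgeR and 1.28%, 2.22% and 3.12% by DESeq2 at 0.1, 0.5 and 5 mg/kg. At an unadjusted p below 0.05 there was 1 member at 0.1 mg/kg, Npas2, and 0 at the other doses, with 8.41%, 10.9% and 12.4% of all probes below that p. For Dbp at 0.5 mg/kg the effect in females minus that in males was -4.0 ± 2.03 on the log2 scale (edgeR adjusted p = 0.47), and without a filter on low counts this difference was called (adjusted p = 0.0834).

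How widely the members varied among mice of the same group was itself uneven. The standard deviation of log2 CPM within groups was 2.91 for Dbp and 2.89 for Per3, and of 12412 tested genes only 0.129% and 0.145% had a larger one. It was 0.57 for Clock, 0.75 for Cry1 and 0.80 for Cry2, below the median of 1.35 over all genes, and 1.83 for Arntl and 1.92 for Nr1d1. Low counts widen this measure for Dbp and Per3 alike. Per3 was at 0 in 19 mice. Dbp had reads in 33 of 39 mice at a median of 1.6 molecules, although it reached 89.1 molecules.

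Some of the clock genes deviated from their group means together or in opposite directions. Of 45 pairs of members, 4 passed the 10% threshold in a permutation test of Pearson's r within groups, after adjustment over the 45 pairs. Dbp rose and fell with Nr1d1 (r = 0.58, rho = 0.60, permutation p = 1e-05 and 3e-05, adjusted 0.00045 and 0.00135), the first p being the smallest that 100000 resamples can give. Per3 went opposite to Cry1 (r = -0.68, rho = -0.65, permutation p = 2e-05 and 6e-05, adjusted 0.00045 and 0.00135). Without the 2 mice farthest from the median of Nr1d1, r was 0.59 for Nr1d1 with Dbp. Without the 2 farthest in Per3, r was -0.62 for Per3 with Cry1, so that neither relation rested on those animals. Both depended on the probe, in comparisons added after the data were seen. With the second Cry1 probe, Per3 and Cry1 gave r = -0.15 (adjusted permutation p = 0.647). With the second and the third Dbp probe, Nr1d1 and Dbp gave r = 0.49 and 0.28 (adjusted permutation p = 0.13 and 0.447).

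Dbp also went opposite to Cry1 (r = -0.41, rho = -0.43, permutation p = 0.00391 and 0.0061, adjusted 0.0587 and 0.0915) and to Arntl (r = -0.55, rho = -0.48, permutation p = 0.00737 and 0.0113, adjusted 0.0829 and 0.0993). Without the 2 mice farthest from the median of Cry1 the first became -0.46, and without the 2 farthest in Arntl the second became -0.44. This removal did not go by Dbp, and without mouse 253 alone the values were -0.35 and -0.54. The call of Cry1 with Dbp was lost without any one of mice 201, 204, 253, 405 and 453 (adjusted permutation p of 0.11 to 0.254), and that of Arntl with Dbp without any one of 13 mice (0.101 to 0.249). Both relations missed the threshold in males alone, where r was -0.30 for Cry1 and -0.51 for Arntl (adjusted permutation p = 0.533 for both), while in females alone r was -0.59 and -0.62 (adjusted permutation p = 0.0673 for both). Cry1 with Dbp kept its call with the second Dbp probe (adjusted permutation p = 0.0541) and lost it with the third (0.313) and with the second Cry1 probe (0.129), and Arntl with Dbp lost it in all 3. The pairs Nr1d1 with Dbp and Per3 with Cry1 passed in each sex: r was 0.65 in males and 0.70 in females for the first and -0.77 and -0.61 for the second. By Spearman's rho, 7 pairs passed in all, and the added ones were Arntl with Per3 (rho = -0.47), Per3 with Dbp (rho = 0.43) and Cry1 with Nr1d1 (rho = -0.43), each at adjusted p = 0.0993 by permutation.

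**Figure D4:**
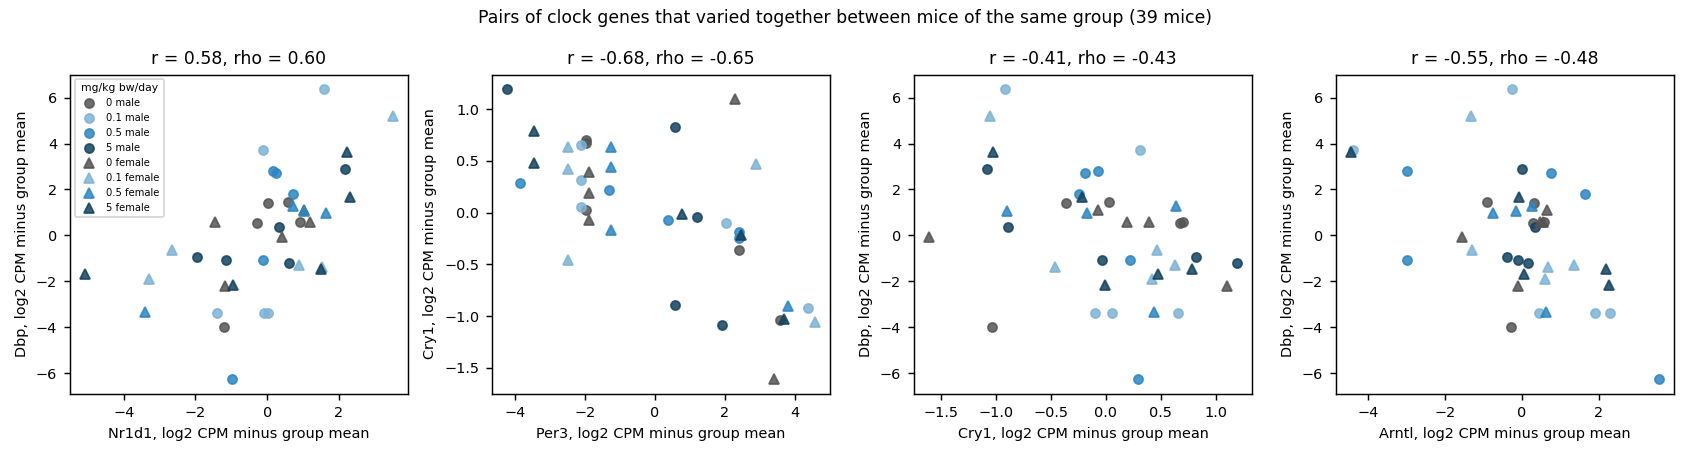
The 4 pairs of clock genes called over 39 mice on the most counted probes, each axis giving log2 CPM minus the mean of the mouse's own group, with males as circles, females as triangles and darker colours for higher doses. Dbp rises with Nr1d1 (r = 0.58), Cry1 falls with Per3 (r = -0.68), and Dbp falls with Cry1 (r = -0.41) and Arntl (r = -0.55).

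By the most counted Cry1 probe, the relation with Per3 can be followed in single animals. The mouse with the highest Per3 of its group was the mouse with the lowest Cry1 in 7 of 8 groups: 102, 151, 204, 253, 351, 405 and 453. In male 204 Cry1 was 5.56 CPM against 9.89 to 16.8 CPM in the other males at 0.1 mg/kg, and in female 453 it was 3.82 CPM against 6.81 to 13.8 CPM in the other females at 5 mg/kg. By the second Cry1 probe this held in 2 of 8 groups, those of mice 253 and 453. By the most counted probe it was also seen in both control groups, where mouse 102 had Per3 at 6.99 and Cry1 at 4.77 CPM and mouse 151 had 5.87 and 3.66 CPM, but by the second Cry1 probe neither mouse was the lowest of its group, at 8.26 and 20.7 CPM. Because Per3 was at 0 in 19 mice, part of its relation with Cry1 is between mice with and without Per3 reads, and over the 20 mice with reads, a choice made after the values were seen, r was -0.53. The mouse with the highest Dbp of its group also had the highest Per3 in 4 of 8 groups and the highest Nr1d1 in 3 of 8. Within groups, Dbp correlated at r = 0.29 with the captured molecules of the library and at -0.25 with the sum of the hepatocyte markers (log2 values, 39 mice), and their part in the result was not tested.

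The 250 bases before the start of each member were searched on both strands for the D-box, the element that DBP and its relatives bind (TTATGTAA, TTACATAA or TTACGTAA), and for the E-box CACGTG, through which CLOCK and BMAL1 act. RefSeq sequences (GRCm38.p6) were at hand for 9 of the 10 members, with 13 start sites. The D-box was found in 0.931% of all 32851 promoters and the E-box in 6.02%. All matches of the members are shown, and they were not tested against the correlations between members. Per3 alone held a D-box, in 2 copies at 205 to 198 and 158 to 151 bases before its start. Cry1 held an E-box at 60 to 55 bases, and 1 of the 2 start sites of Per1 held one at 166 to 161 bases. That Per1 start lies inside the gene, which begins at chr11:69095217, and the other Per1 start had no match. Capitals mark the motif, and each stretch reads 5′ to 3′ on the gene's own strand, which is minus for Per3 and Cry1 and plus for Per1.

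Per3 D-box, chr4:151044852-151044881: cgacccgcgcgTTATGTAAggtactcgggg
Per3 D-box, chr4:151044805-151044834: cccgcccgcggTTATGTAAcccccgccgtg
Cry1 E-box, chr10:85185098-85185125: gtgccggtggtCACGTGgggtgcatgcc
Per1 E-box, chr11:69098772-69098799: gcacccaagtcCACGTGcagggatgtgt

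No match was found in these windows for Arntl, Clock, Npas2, Cry2, Nr1d1 or Dbp, which says only that these letters are not there. A match describes the letters and was not tested as a binding site.

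Beyond the members, the genes whose deviations most resembled those of Dbp were sought among 5487 genes with a mean of at least 10 CPM, as a description over 39 mice. The highest r belonged to Nampt (0.60), the rate-limiting enzyme of NAD salvage and itself a clock output, and then to Rnf19b (0.58), Cyp2e1 (0.58), Man2b1 (0.58) and AI464131 (0.57). The most opposite genes were Clpx (-0.76), a mitochondrial chaperone and protease subunit, Rnf125 (-0.75), a ubiquitin ligase, Cldn1 (-0.71), a tight junction protein, Ppard (-0.69), a lipid-sensing nuclear receptor, and Tubb2a (-0.67). Clpx was 382, 261, 314, 174 and 406 CPM in the males at 0.1 mg/kg and 495, 359, 89.4, 574 and 442 CPM in the females at this dose. The lowest Clpx of each group belonged to mouse 204 and mouse 253, the animals with the highest Dbp. Rnf125 was likewise lowest there, at 70.4 CPM in mouse 204 against 174 to 380 CPM in the other males and at 72.0 CPM in mouse 253 against 297 to 484 CPM in the other females. Both genes were picked by their r with Dbp over these same mice, so these low values are part of that r and add no support.

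For Arntl the most similar genes were Slco2b1 (r = 0.68), a transporter of organic anions, Il13ra1 (0.66), Leap2 (0.66), Stk39 (0.64) and Ppard (0.63), and the most opposite were Rapgef6 (-0.62), Pex3 (-0.59), Fam135a (-0.55), Daam1 (-0.51) and Fmo2 (-0.51). Ppard thus stood near Arntl at one end and opposite Dbp at the other. The 5 genes most like Per1 reached r of 0.51 to 0.59 and those most like Per2 0.57 to 0.64, but they are not named, since these patterns rest on 10 mice and on 1 mouse with reads.

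Of 10 other clock transcription factors, 9 were tested and none was called up or down at any dose or between control sexes. At most 8.28% of all probes were called in these comparisons, so that this count is near the share. Nfil3, a repressor at D-boxes, moved against Dbp across mice of the same group (r = -0.54). Nfil3 was 33 CPM in mouse 204 against 49.4 to 77.0 CPM in the other males at 0.1 mg/kg, and 31.1 CPM in mouse 253 against 68.8 to 126 CPM in the other females. Bhlhe40, which encodes the repressor DEC1, moved with Dbp (r = 0.47). Nfil3 and Bhlhe40 were singled out after their values were seen. The same measure was -0.01 for Nr1d2 and 0.53 for Bhlhe41, the latter with reads in 10 mice.

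Among 11 regulators of clock protein stability and activity, all tested, 1 rose and 1 fell in males at 5 mg/kg and none passed in any other group. In males at 5 mg/kg 8.28% of all probes were called. Csnk1d, the casein kinase that phosphorylates the PER proteins, was 34.3, 24, 32.8, 36.9 and 30.6 CPM there against 49.9, 63.4, 66.7, 48.6 and 46.2 CPM in controls, without overlap (log2 fold change -0.79 ± 0.26, edgeR adjusted p = 0.0499). Gsk3b, another kinase of clock proteins, rose to 43.0, 48.6, 59.0, 54.5 and 71.8 CPM from 24, 32.9, 30, 51.0 and 33.8 CPM (0.69 ± 0.25, adjusted p = 0.0895). The call of Gsk3b was lost without any one of controls 101, 102, 103 and 105 or treated mice 402, 403, 404 and 405, at adjusted p of 0.111 to 0.217, and that of Csnk1d without 102, 103 or 402, at 0.114 to 0.145. Both are to be read beside the larger number of captured molecules in this group, whose part in the result was not tested, and beside the median log2 fold change of 0.10 over all genes there.

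Of 12 clock-linked liver outputs, 1 rose in males at 0.5 mg/kg, and at 5 mg/kg 2 rose and 2 fell in males while 1 rose and 1 fell in females. The shares of all probes called in these comparisons were 2.38%, 8.28% and 3.66%. Nampt was 6.53, 1.62, 14.4, 7.38 and 11.7 CPM in male controls and 20.4, 27.1, 29.2, 29.7 and 24 CPM in males at 5 mg/kg, without overlap (log2 fold change 1.65 ± 0.45, edgeR adjusted p = 0.0136). At 0.5 mg/kg it was 33.8, 18.1, 13.7, 6.31 and 41.8 CPM (1.45 ± 0.45, adjusted p = 0.0969), and the 3 highest values came from mice 301, 302 and 305, those with high Dbp. This call was lost without any one of 101, 102, 104, 105, 301, 302 or 305, at adjusted p of 0.1025 to 0.324. Por, the P450 oxidoreductase, rose in males at 5 mg/kg (1.05 ± 0.38, adjusted p = 0.0963), and its call was lost without 101, 102, 105, 401, 402, 403 or 405, at adjusted p of 0.11 to 0.225.

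Elovl3, a fatty acid elongase with high levels in male liver, fell from 561, 876, 1033, 1090 and 2029 CPM in male controls to 40.4, 48.6, 233, 111 and 126 CPM at 5 mg/kg (log2 fold change -3.32 ± 0.58, edgeR adjusted p = 3.79e-05). The groups did not overlap, and the females were between 0 and 78.3 CPM throughout. Upp2, a uridine phosphorylase, fell in the same males (-1.33 ± 0.31, adjusted p = 0.00257). In females at 5 mg/kg Noct, the gene of nocturnin, was 7.52, 0, 5.66, 0 and 14.5 CPM against 38.8, 28.8, 29.3, 40.6 and 59.3 CPM in controls, without overlap (-2.83 ± 0.82, adjusted p = 0.0425, and 0.102 without control 155). Gys2, the liver glycogen synthase, rose there (0.82 ± 0.25, adjusted p = 0.0607), and its call was lost without 152, 155 or 453, at adjusted p of 0.106 to 0.303. Cyp7a1 and Ppara, an enzyme of bile acid synthesis and the fatty acid receptor, were called at no dose.

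The genes that answer to feeding, hormones and temperature were followed because these cues set the phase of the liver clock. Of 11, none passed at 0.1 or 0.5 mg/kg, while at 5 mg/kg 1 rose and 2 fell in males, and Tsc22d3 and Pck1 were among those that fell in females. Tsc22d3, a target of the glucocorticoid receptor, fell in both sexes: to 93.7, 93.8, 73.5, 118 and 94.0 CPM from 144, 236, 189, 159 and 279 CPM in males (log2 fold change -1.09 ± 0.23, edgeR adjusted p = 0.000577), and to 159, 178, 183, 162 and 180 CPM from 364, 516, 481, 208 and 308 CPM in females (-1.12 ± 0.23, adjusted p = 0.000838). Neither sex had an overlap with its controls. Pck1, an enzyme of gluconeogenesis, fell in both sexes as well (-1.24 ± 0.25, adjusted p = 0.000298 in males, and -0.84 ± 0.24, adjusted p = 0.0454 in females), and the metallothionein Mt2 rose in males (3.96 ± 0.92, adjusted p = 0.00264). In females Mt2 was called at no dose. Without a filter on low counts, edgeR called it lower in females at 0.5 mg/kg (-2.64, adjusted p = 0.000388) and 5 mg/kg (-1.39, adjusted p = 0.0824). The call of Pck1 in females was lost without 152, 153, 155, 451 or 452, at adjusted p of 0.102 to 0.201. Fkbp5 and Cirbp passed at no dose.

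**Figure D5:**
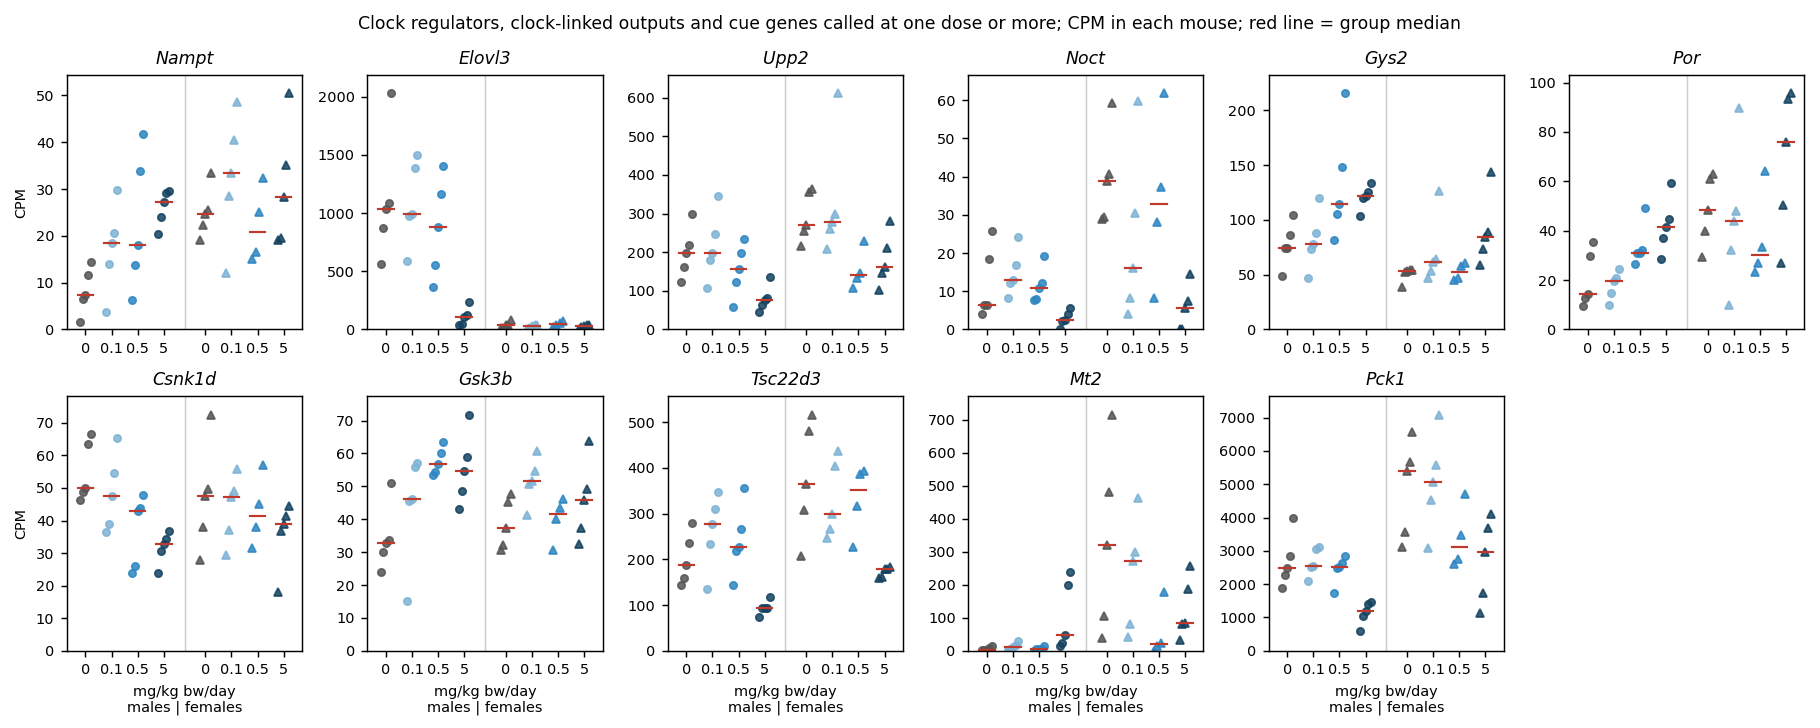
CPM in each mouse for 11 clock regulators, clock outputs and cue genes called in at least 1 dose comparison, by dose in mg/kg bw/day with males as circles on the left, females as triangles on the right and red lines for group medians. Elovl3 falls in males at 5 mg/kg from 561 or more to 233 or less, and Tsc22d3 lies below all controls at 5 mg/kg in both sexes.

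Between control females and males, 4 of the cue genes (Fkbp5, Tsc22d3, Mt2 and Pck1) were higher in females, and of the outputs Por and Nampt were higher and Elovl3 lower. The controls of the 2 sexes thus differed in 7 of these genes, while 3.49% of all probes were called between them. For the 9 tested core clock genes a count of 0 is near what that share would give, so that no contrast is drawn. Among the markers of other cells, none of the Kupffer cell, stellate cell, cholangiocyte or lymphocyte lists held a called gene at any dose. The endothelial marker Clec4g fell in males at 5 mg/kg (log2 fold change -0.61 ± 0.21, edgeR adjusted p = 0.0688). Of the hepatocyte markers, Ahsg fell in males at 0.5 mg/kg and in both sexes at 5 mg/kg and Fgb in both sexes at 5 mg/kg, where the sums over the list were 8543 to 10100 CPM in males and 10150 to 11990 CPM in females against 11360 to 13950 and 13060 to 15560 CPM in their controls. The proliferation markers summed to 23.2 to 62.2 CPM in males at 5 mg/kg against 0 to 1.79 CPM in male controls, with Top2a called there. The part of these markers in the results on clock genes was not tested.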

How the data were processed

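Liver RNA of 40 mice was measured with TempO-Seq, a ligation assay in which pairs of probes capture short targets. Per the submitters' processing notes, reads were made with bcl2fastq 2.17.1.14 and assigned with Bowtie, naming build mm10 (GRCm38). The deposited values are raw read counts per probe, not normalized by the authors. As in the study, libraries more than 2 SD below the mean of 13041142 reads were left out, which removed mouse 355. Counts were tested with edgeR 4.0.16 (R 4.3.3): TMM, filterByExpr (17877 probes kept), 1 quasi-likelihood model over 8 sex-by-dose groups, Benjamini-Hochberg adjustment over all probes and a 10% threshold. Standard errors are the log2 fold change divided by the root of F. Mice were separately numbered animals. DESeq2 1.42.0 and the other alternatives are in the closing section. Molecules are counts divided by the first peak of each library's count histogram. Correlations used deviations of log2 CPM (prior count 2) from group means, permuted within groups 100000 times, two-sided (Python 3.11.15). Scripts were tested on simulated data. The 10 genes and all lists were chosen with earlier results of these data known. The genes named are all members, the list genes called at a dose with up to 2 others, and the 5 genes most and least like Arntl and Dbp, and exceptions are stated as chosen after their values were seen. Some genes of the lists are not reported here. Promoters are from RefSeq GRCm38.p6.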

Additional observations from a re-analysis of the deposited data

Results flagged for a closer look

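In 69 combinations of gene and group with 4 or 5 mice, a mouse was marked where its gap to the nearest other mouse took up more of the group's range than Dixon's 95% limit allows. The limit assumes values from a normal distribution, which CPM with many zeros do not follow. A single mouse with reads in a group otherwise at 0 is always marked. The marks, 16 in all and 5 of them in mouse 204, are therefore a description and cannot be set against chance. For Dbp the marked values were 130 CPM in male 204 at 0.1 mg/kg, 208 CPM in female 253 at 0.1 mg/kg, 56.3 CPM in male 405 at 5 mg/kg and 210 CPM in female 453 at 5 mg/kg. Nr1d1 was marked at 37.4 CPM in mouse 204 and 16.6 CPM in mouse 253, and Per3 at 13.6 CPM in mouse 204 and 4.96 CPM in female 351 at 0.5 mg/kg. Clock was marked at 31.7 CPM in mouse 204, and Arntl at 14 CPM in male 304 at 0.5 mg/kg. The remaining marks were single captures in groups otherwise at 0: Per2 at 3.19 CPM in mouse 204, Per1 at 3.30 CPM in male 202 and 6.83 CPM in female 354, and Npas2 at 2.78 CPM in control female 154, 1.61 CPM in male 303 and 3.62 CPM in female 352. Of the 16 marked values, 7 came from fewer than 3 molecules. With the filter on low counts, no difference of a dose effect between the sexes was called by edgeR for any member. Without that filter, edgeR called this difference for Dbp at 0.5 mg/kg (adjusted p = 0.0834).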

How the results depend on the processing

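The count of clock genes called stayed at 0 in each comparison under DESeq2 size factors, with all 40 libraries and with any 1 mouse left out. It became 1 without a filter on low counts in males at 0.5 mg/kg, females at 0.1 mg/kg, females at 5 mg/kg and the sex difference at 0.5 mg/kg, each time Dbp. Dbp made it 1 in females at 5 mg/kg also with probes summed by gene (adjusted p = 0.093), counts in molecules (0.0638) and only the groups compared (0.05005), and Per1 made it 1 for each sex at 5 mg/kg under DESeq2. The 4 pairs became 2 with a prior count of 0.5, 2 in males only, 7 in females only and 2 without the 5 mg/kg groups, and ran from 2 to 7 when a mouse was left out (20000 resamples), with 2 without mouse 201, 253, 405 or 453 and 7 without mouse 202. The pairs Nr1d1 with Dbp and Per3 with Cry1 kept their calls in these. In alternatives added after seeing the data, the 4 pairs became 1 with the second Cry1 probe, 3 with the second Dbp probe and 1 with the third. Per3 with Cry1 lost its call in the first of these and Nr1d1 with Dbp in the others. Of 1193 fold changes and correlations under alternatives other than leaving out a mouse, 1121 kept their side of the threshold, 37 lost it and 35 gained it. No called value changed sign, but 26 fold changes called in neither fit did, and 182 when a mouse was left out. With all 40 libraries Tsc22d3, Gys2, Noct and Pck1 in females and Csnk1d, Gsk3b and Por in males lost their calls at 5 mg/kg, as did Nampt in males at 0.5 mg/kg. Gsk3b, Por and Nampt in these groups also lost them under DESeq2 size factors, Csnk1d and Gsk3b without a filter, and Noct, Pck1 and Nampt with only the groups compared. The third Dbp probe lost it with all 40 libraries in 3 comparisons (adjusted p = 0.171, 0.1035 and 0.19) and with counts in molecules in males (0.104 and 0.188). It gained a call at 0.1 mg/kg without a filter (males 2.36e-05, females 0.00143) and under DESeq2 in males (0.062). Without a filter or with counts in molecules, Gys2 in males at 0.5 mg/kg and Noct in males at 5 mg/kg were also called, and with probes summed, counts in molecules, only the groups compared or DESeq2 so was Gsk3b in males at 0.5 mg/kg. Gys2 in males was called at 0.5 mg/kg under DESeq2, and at 5 mg/kg with counts in molecules or only the groups compared. Without a filter Mt2 and Upp2 were called lower in females at 0.5 and 5 mg/kg, and Mt2 at 0.5 mg/kg also with counts in molecules. The cause was not tested. Over all probes, DESeq2 called 277 in males at 0.1 mg/kg against 6 by edgeR, and with all 40 libraries 834 were called in males at 5 mg/kg against 1480. No paired analysis was possible because the groups share no animal numbers. Depth limits Npas2, Per1, Per2 and Per3 most.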

Other observations

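Ciart, which encodes a repressor of the CLOCK and BMAL1 pair, was chosen after its values were seen. It was 36.2 CPM in female 253 and 48.7 CPM in female 453, and at most 9.90 CPM in the other 37 mice, with reads in 18 of 39 mice. It was called at no dose. Tfrc, the transferrin receptor, was also chosen after its values were seen and was called at no dose. It moved against Dbp within groups (r = -0.55), at 10.9 CPM in mouse 204 and 15.5 CPM in mouse 253.

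The library of female 355 at 0.5 mg/kg, which entered no comparison, held 6711981 reads from 91945 captured molecules. Its counts gave 5.3 molecules of Dbp (57.2 CPM, unscaled), 2.3 of Cry1, 6.4 of Cry2, 2.0 of Nr1d1, 1.1 of Arntl, 1.0 of Per3 and 1.2 of Per2, and no reads of Clock, Npas2 or Per1.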
